A study of Mus musculus with 31 samples.

Results

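The genes described here are 7 subunit genes of neuronal nicotinic acetylcholine receptors (Chrna2, Chrna3, Chrna4, Chrna5, Chrna7, Chrnb2 and Chrnb4) and Ly6h, whose protein binds such receptors. They were chosen by symbol, and all 8 were found among the 20774 mouse genes of the authors' normalized table and, by Ensembl identifier, among the 55421 of the raw count table. All 8 passed the filter on low values, reads in 25% or more of a group's cells. Each library was 1 neuron of an acute mouse brainstem slice, patch-clamped and then aspirated for Smart-seq2, a full-length cDNA method for polyadenylated RNA. The 18 lateral olivocochlear (LOC) neurons came from the lateral superior olive and the 13 medial olivocochlear (MOC) neurons from the ventral nucleus of the trapezoid body. Chrna2 and Chrna5 passed the filter through the MOC cells alone. They had reads in 30.8% and 46.2% of MOC cells, against 11.1% of LOC cells for each gene. Both groups were picked by red fluorescence in ChAT-IRES-Cre; tdTomato mice, in which Cre at the choline acetyltransferase gene turns on tdTomato. The labels call the genotype wild-type, name RNA-seq after patch clamp as the treatment of all cells, and give no age or animal. Each group therefore counted as 1 sample: no test was run, and every SD below is a spread between cells.

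Nicotinic receptors are cation channels that acetylcholine opens directly, and each is a ring of several subunits. Alpha 2, alpha 3 and alpha 4 pair with beta 2 or beta 4, alpha 5 joins such receptors as an accessory subunit, and alpha 7 can form a receptor alone. The receptor on which MOC axons act in outer hair cells is built of alpha 9 and alpha 10, whereas the subunits described here belong to receptors of neurons, on cell bodies or nerve endings. Ly6h encodes a membrane-anchored protein of the Ly6 family, whose three-finger fold is shared with snake toxins, and it is known to hold back alpha 7 receptors.

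The genes lie at 6 places in the genome (GRCm38, GENCODE M21). In the order of the first sentence, their identifiers are ENSMUSG00000022041, ENSMUSG00000032303, ENSMUSG00000027577, ENSMUSG00000035594, ENSMUSG00000030525, ENSMUSG00000027950 and ENSMUSG00000035200 for the subunit genes and ENSMUSG00000022577 for Ly6h. Chrnb2 lies on chromosome 3 at 89746195 to 89764632 (minus strand), Chrna4 on chromosome 2 at 181018380 to 181043546 (minus), Chrna2 on chromosome 14 at 66135039 to 66152948 (plus), Chrna7 on chromosome 7 at 63098692 to 63212569 (minus) and Ly6h on chromosome 15 at 75551268 to 75567255 (minus). Chrna5, Chrna3 and Chrnb4 form a cluster of 67900 bases on chromosome 9. Chrna5 reads on the plus strand (54980880 to 55007779), and Chrna3 (55010111 to 55026562) and Chrnb4 (55028154 to 55048779) on the minus strand, with gaps of 2331 and 1591 bases between them. Exons of Chrnb2 share 1365 of their 8380 bases (16.3%) with Adar, the gene of an RNA-editing enzyme on the other strand. The libraries keep no strand, so reads there cannot be told apart. Adar itself was summed to 45.4 CPM (counts per 1000000) over the LOC cells and 52.7 over the MOC cells, and its mean log2 difference was -1.17 (LOC minus MOC). No other member shared exon bases with another gene.

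RefSeq start sites (GRCm38.p6) were listed for 6 of the 8 genes, and the 250 bases before 4 of them are shown, for the pair of genes of opposite direction (Chrnb2 and Chrna4) and for the neighbours Chrna3 and Chrnb4. They are chr3:89764633-89764882, chr2:181039178-181039427, chr9:55026563-55026812 and chr9:55048545-55048794, all on the minus strand and written 5′ to 3′. Capitals mark the GC box, searched as GGGCGG on both strands (CCGCCC on the strand shown), overlapping matches included.
Chrnb2: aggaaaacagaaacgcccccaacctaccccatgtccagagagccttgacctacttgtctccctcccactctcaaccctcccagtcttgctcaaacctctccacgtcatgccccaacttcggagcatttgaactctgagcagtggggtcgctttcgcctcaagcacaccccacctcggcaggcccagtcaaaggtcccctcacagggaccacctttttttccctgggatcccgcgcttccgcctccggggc
Chrna4: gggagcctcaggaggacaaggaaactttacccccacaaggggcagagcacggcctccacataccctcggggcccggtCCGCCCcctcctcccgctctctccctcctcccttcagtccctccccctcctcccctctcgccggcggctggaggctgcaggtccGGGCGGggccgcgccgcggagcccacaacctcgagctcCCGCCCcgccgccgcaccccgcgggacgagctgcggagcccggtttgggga
Chrna3: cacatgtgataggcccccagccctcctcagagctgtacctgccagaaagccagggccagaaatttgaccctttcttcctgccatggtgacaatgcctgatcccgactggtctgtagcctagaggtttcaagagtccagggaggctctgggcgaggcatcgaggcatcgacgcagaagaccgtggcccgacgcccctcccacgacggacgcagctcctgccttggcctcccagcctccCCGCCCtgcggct
Chrnb4: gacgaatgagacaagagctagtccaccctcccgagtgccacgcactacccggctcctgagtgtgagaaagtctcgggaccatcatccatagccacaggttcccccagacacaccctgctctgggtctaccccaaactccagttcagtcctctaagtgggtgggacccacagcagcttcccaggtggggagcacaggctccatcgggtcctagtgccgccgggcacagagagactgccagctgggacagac
The Chrna4 window held 3 GC boxes and 24 CG pairs, the Chrna3 window 1 and 13, and the Chrnb2 and Chrnb4 windows 0 boxes with 10 and 8 CG pairs. The Chrna4 window lies inside the GENCODE span of its gene given above, and the Chrnb4 window overlaps that of its gene. Box counts thus depend on the start site taken. Of the windows not shown, that of Chrna7 held 1 GC box, and Chrna5 had 0 or 4 by start site. Among 32851 windows of the same length before RefSeq start sites, 32.7% held at least 1 GC box and 8.47% at least 3. GC content was 74.4% for Chrna4, 63.2% for Chrna3, 61.2% for Chrnb4 and 59.6% for Chrnb2, against a median of 52.4% over all windows.

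The libraries held between 356412 and 1404896 counts in LOC and between 598028 and 2627174 in MOC, so that 3 counts, the limit that a count of 0 allows, were worth 2.14 to 8.42 CPM in an LOC cell and 1.14 to 5.02 CPM in an MOC cell. Not every library carried the mark of a cholinergic neuron. Reads over Chat, Slc18a3 and Slc5a7, which encode the enzyme and the transporters of acetylcholine, numbered 0 to 1613 in LOC (median 305.5) and 0 to 997 in MOC (median 28), with fewer than 10 in LOC cells 7, 9, 14 and 16 and MOC cells 4, 8, 9, 12 and 13. Of these 3 genes, Slc18a3 met the size rule given below in LOC, as did Gata2 of 5 markers of the olivocochlear and motor lineage. Of 10 microglial markers 6 met it in MOC, and their summed level per cell was 31.1 to 2172 CPM in LOC and 40.7 to 11107 CPM in MOC. Of 4 markers of inhibitory neurons Gad1, the enzyme that makes GABA, met it in MOC (summed level 0 to 949 and 10.1 to 2990 CPM), as did 1 of 9 oligodendrocyte markers (22.7 to 238208 and 361 to 123122 CPM) and 1 of 8 astrocyte markers (683 to 8859 and 609 to 7937 CPM). None of 8 blood vessel or 2 measured glutamatergic markers met it in either group. The part of these markers in the results was not tested. MOC cell 8 stood apart, with 0 cholinergic reads, 1690 CPM of Gad1, the highest microglial level and 0 reads of all 8 genes described here among 1449411 counts. The same library held 93 reads of tdTomato, the marker by which cells were picked and the most of all 31 libraries. Of the other libraries with fewer than 10 cholinergic reads, MOC cell 4, with 3 of them, held 48 tdTomato reads. MOC cell 9 held 8 and LOC cell 14 held 4, while LOC cells 7, 9 and 16 and MOC cells 12 and 13 held 0. Some libraries with at least 10 cholinergic reads also held 0 tdTomato reads, namely LOC cells 1, 2, 6 and 10 and MOC cells 7 and 11.

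By a rule of size, Chrnb2 and Ly6h were higher in LOC, Chrna4 and Chrna2 were higher in MOC, and Chrna3, Chrna5, Chrna7 and Chrnb4 did not meet the rule. For Chrnb2, Ly6h, Chrna4 and Chrna2 alike, the difference of the mean log2 values was smaller than the SD between MOC cells. The size rule asked for a summed CPM that was 2-fold or more higher, a group with fewer than 3 counts being set to 3. It also asked for a mean log2(CPM + 1) higher by 1 or more and for reads in 25% or more of the higher group's cells. It was met by 2 of the 8 genes in LOC, where 6.07% of all 17754 measured genes met it, and by 2 of the 8 in MOC, where 5.67% did. Each count is 25% of the members, above both of those shares, in a list of only 8 genes. The members were chosen with earlier results of these data known, so this comparison of shares cannot serve as evidence about the list. The median difference was 0.10 over the 8 genes and -0.07 over all measured genes. In the plot of all measured genes the members lie in different corners.

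**Figure D1:**
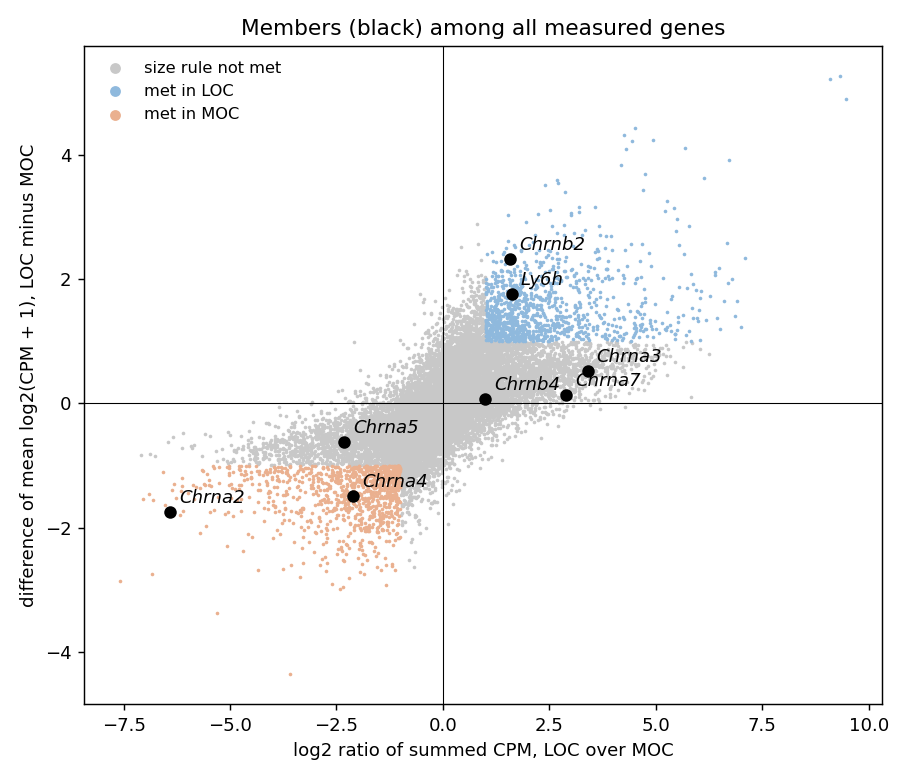
Each point is 1 of 17754 measured genes, with the log2 ratio of summed CPM (LOC over MOC) on the x axis and the difference of mean log2(CPM + 1) on the y axis. Blue and orange points met the size rule in LOC or MOC, and the 8 members are black: Chrnb2 and Ly6h lie among the blue points, Chrna4 and Chrna2 among the orange, and Chrna3 and Chrna7 far to the right but near 0 on the y axis.

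Chrnb2, the beta 2 subunit of most high-affinity nicotine receptors of the brain, was the subunit gene with reads in every LOC cell. Its level ran from 3.19 CPM (LOC cell 2) over a median of 92.1 to 450 CPM (LOC cell 15) in LOC, and from 0 (MOC cells 8 and 13) over a median of 20.7 to 167 CPM (MOC cell 5) in MOC. The groups overlapped, but 16 of 18 LOC cells lay above the MOC median, 4 LOC cells lay above every MOC cell, and 4 MOC cells lay below every LOC cell. Summed counts gave 148 CPM for LOC (95% Poisson interval 142 to 155), which was 2.97 times the 49.9 CPM of MOC (46.2 to 53.8). The mean log2(CPM + 1) was 6.32 ± 1.74 (SD, n = 18 cells) in LOC and 3.99 ± 2.61 (n = 13) in MOC, a difference of 2.33. Cells with a read made up 100% of LOC (18 of 18, exact 95% interval 81.5 to 100) and 84.6% of MOC (11 of 13, 54.6 to 98.1). In libraries with at least 10 cholinergic reads (14 LOC and 8 MOC) the difference was 1.66, and without the library above 1000 CPM of Gad1 (MOC cell 8) it was 2.0. LOC cell 14, with 0 cholinergic reads, 22.7 CPM of oligodendrocyte markers and 552 CPM of microglial markers, held 255 CPM of Chrnb2.

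Chrnb4, the beta 4 subunit that pairs with alpha 3 in ganglia and brainstem, had reads in 8 LOC cells (of 18) and 5 MOC cells (of 13). Its level was 0 at the median of both groups and rose to 261 CPM in LOC cell 1 and 50.9 CPM in MOC cell 6. Most of its LOC reads came from LOC cells 1 and 4 (93.2%), and most of its MOC reads from MOC cells 6, 7 and 9 (96.9%). The summed 23.8 CPM in LOC (21.4 to 26.5) were 1.99 times the 12 CPM in MOC (10.2 to 13.9), just short of the rule's fold, but without LOC cell 1 the LOC value was 8.59 CPM and below that of MOC. Without MOC cell 7 the MOC value was 6.45 CPM. The means, 1.57 ± 2.47 and 1.49 ± 2.27, differed by 0.08, far less than the spread between cells.

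**Figure D2:**
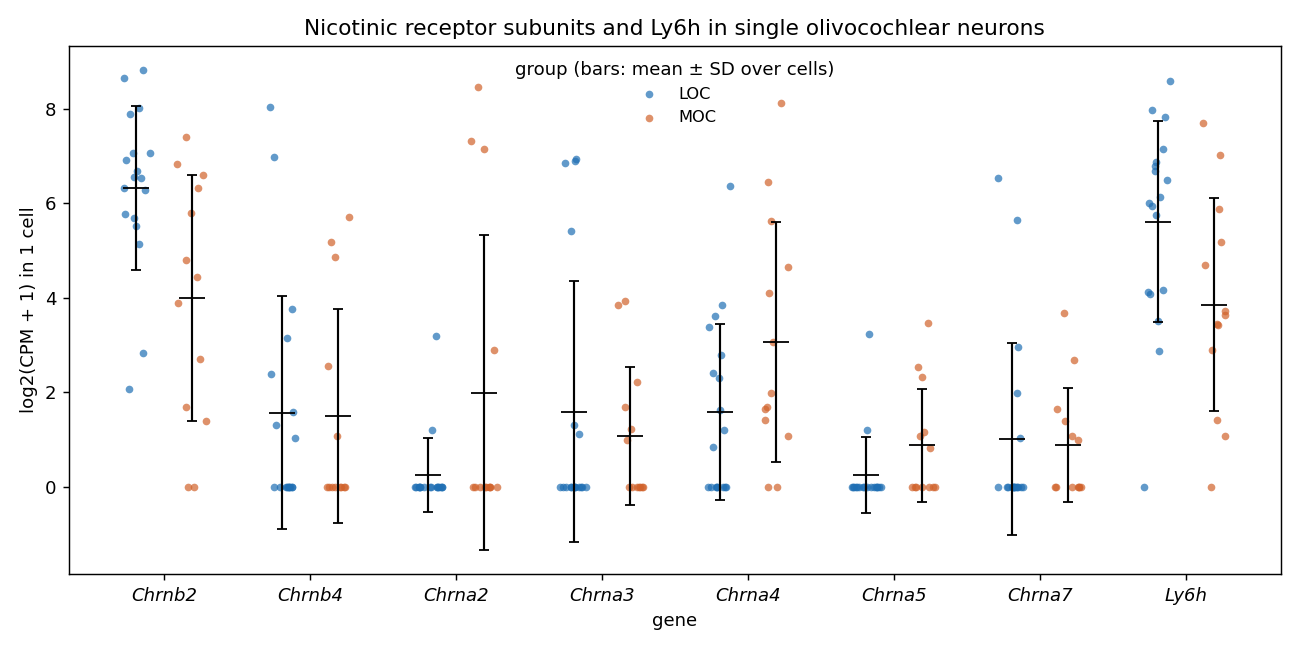
Every point is 1 cell, with log2(CPM + 1) on the y axis and the 8 genes on the x axis, LOC in blue and MOC in orange, and black bars give the mean ± SD over 18 LOC or 13 MOC cells. Chrnb2 and Ly6h in LOC form clouds well above 0, whereas Chrna2, Chrna3, Chrna5, Chrna7 and Chrnb4 have many cells at 0 in both groups.

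Chrna4, the alpha 4 subunit that makes the common brain receptor with beta 2, went the other way from its partner. It ran from 0 over a median of 1.04 to 81.2 CPM (LOC cell 1) in LOC, and from 0 over a median of 2.95 to 276 CPM (MOC cell 13) in MOC. Reads were present in 10 of 18 LOC cells (55.6%, 30.8 to 78.5) and 11 of 13 MOC cells (84.6%, 54.6 to 98.1), and at least 5 reads in 4 and 6 cells. The ranges overlapped, with 2 MOC cells (4 and 13) above every LOC cell. The sum over LOC was 7.36 CPM (6.02 to 8.92) and that over MOC 31.6 CPM (28.7 to 34.7), and the mean log2 values were 1.57 ± 1.86 and 3.06 ± 2.54, a difference of -1.49. LOC cell 1 held 66.7% of the LOC reads and MOC cell 13 held 44.5% of the MOC reads, and without them the sums were 2.61 and 18.5 CPM. The rule was no longer met with a pseudocount of 10 (-0.74) or after thinning each library to 300000 counts (-0.998), where reads remained in 8 LOC and 7 MOC cells. Both MOC cells at the top of the order had few cholinergic reads, 3 in MOC cell 4 and 1 in MOC cell 13, and in libraries with at least 10 such reads the MOC sum was 19.8 CPM and the difference -1.2.

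Chrna2, the alpha 2 subunit, which is rare in the rodent brain, was near 0 in LOC and high in 3 MOC cells. Among MOC cells it reached 348 CPM in cell 2, 159 CPM in cell 10 and 141 CPM in cell 3, with 4 reads (6.43 CPM) in cell 4 and 0 in the other 9, so that the median was 0. In LOC 7 reads were found in cell 1 (8.12 CPM) and 1 read in cell 8, and 16 cells had 0. All 3 high MOC cells exceeded every LOC cell, and the remaining MOC cells overlapped with LOC. The MOC sum of 47.4 CPM (43.9 to 51.2) was 84.6 times the 0.56 CPM of LOC (0.24 to 1.11), a ratio that rests on 8 LOC reads. The mean log2 values were 0.24 ± 0.79 and 1.99 ± 3.33, and their difference of -1.74 was within the SD of the MOC cells. MOC cell 2 gave 48.2% of the MOC reads, and without it the sum was 26.3 CPM and the difference -1.2. Without LOC cell 1 the LOC sum was 0.07 CPM, from 1 read. The high cells held 45 (cell 2), 914 (cell 3) and 689 (cell 10) cholinergic reads, while MOC cell 5, with 997 of them, held 0 reads of Chrna2. The rule was not met by Chrna2 when reads were asked for in 50% or more of the cells. MOC cells 7, 8 and 12 had the highest microglial levels and no Chrna2 read, and without them the MOC sum was 74.0 CPM.

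Chrna3, the alpha 3 subunit of ganglionic receptors, was high in 4 LOC cells. Its LOC values were 122 CPM in cell 4, 118 in cell 13, 114 in cell 5 and 41.8 in cell 11, with a single read in cells 1 and 6 and 0 in 12 cells. In MOC 6 of 13 cells had reads, none above the 14.3 CPM of MOC cell 3. Those 4 LOC cells thus lay above every MOC cell, yet cells with any read were a smaller share of LOC (33.3%, 13.3 to 59.0) than of MOC (46.2%, 19.2 to 74.9), intervals that overlap. The LOC sum of 26.3 CPM (23.7 to 29.1) was 10.5 times the MOC sum of 2.49 CPM (1.73 to 3.48), and without LOC cell 5 the LOC sum was 16.7 CPM. Without MOC cell 3 that of MOC was 1.22 CPM. The rule was not met, since the mean log2 values of 1.58 ± 2.76 and 1.07 ± 1.46 differed by 0.51 and the medians were both 0. Without LOC cell 4, 5 or 13 that difference was 0.20. The 4 high LOC cells held between 360 and 818 cholinergic reads.

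Chrna5, the accessory alpha 5 subunit, had the lowest summed CPM of the 7 subunit genes in LOC, on 4 reads against 8 of Chrna2. By mean log2(CPM + 1) in LOC it was not below Chrna2 (0.247 against 0.243). The 4 LOC reads of Chrna5 lay in cells 7 and 11, and its 19 MOC reads in 6 of 13 cells, with 9 of them in MOC cell 2. The sums of 0.28 CPM (0.08 to 0.72) and 1.39 CPM (0.84 to 2.18) are low: 3 counts over a group were worth 0.21 CPM for LOC and 0.22 for MOC. Without LOC cell 7 the LOC sum was 0.07 CPM, and without MOC cell 2 that of MOC was 0.78 CPM. After thinning to 300000 counts it was read in 2 LOC and 2 MOC cells, and the mean difference went from -0.63 to -0.15.

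Chrna7, the alpha 7 subunit of fast, calcium-permeable receptors, had most of its LOC reads in LOC cells 1 and 13 (93.6%, at 91.6 and 49.3 CPM). In MOC it did not pass 11.7 CPM (MOC cell 5). Reads were present in 5 LOC cells (of 18) and 6 MOC cells (of 13), and only LOC cells 1 and 13 lay above every MOC cell. The sums were 8.77 CPM (7.30 to 10.4) and 1.17 CPM (0.67 to 1.91), and the mean log2 values 1.01 ± 2.03 and 0.88 ± 1.2 differed by 0.13. Without LOC cell 1 the LOC sum was 3.43 CPM and the mean difference turned to -0.20, without MOC cell 5 the MOC sum was 0.69 CPM, and without MOC cells 7, 8 and 12 the difference was -0.13.

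Ly6h, like Chrnb2, was higher in LOC, and nearly every cell held it, 17 of 18 in LOC and 12 of 13 in MOC. Its level was 0 in LOC cell 9, 65.9 CPM at the LOC median and 381 CPM in LOC cell 15. In MOC it was 0 in cell 8, 11.3 CPM at the median and 206 CPM in cell 4. The groups overlapped, with 15 of 18 LOC cells above the MOC median and 2 of 13 MOC cells above the LOC median. The LOC sum of 99.1 CPM (94.0 to 104) was 3.06 times the MOC sum of 32.4 CPM (29.5 to 35.6). The mean log2 values were 5.61 ± 2.13 and 3.85 ± 2.26, a difference of 1.76. Both MOC cells above the LOC median, 4 and 9, had fewer than 10 cholinergic reads, and in libraries with at least 10 the MOC sum was 15.3 CPM and the difference 2.80. With the authors' normalized values averaged over cells, 85.4 in LOC and 44.8 in MOC, the ratio fell short of 2 and the rule was not met.

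Cells differed in which subunits they held. Per LOC cell 1 to 6 of the 7 subunit genes had a read (median 3), and per MOC cell 0 to 7 (median 4), with a median depth of 768815 counts in LOC and 906622 in MOC. At least 5 reads of 2 or more subunit genes were present in 8 LOC and 8 MOC cells. Of the 7 subunit genes only Chrnb2 reached 5 reads in most cells of both groups (16 of 18 and 9 of 13). LOC cell 1 combined 225 reads of Chrnb4, 79 of Chrna7, 70 of Chrna4 and 68 of Chrnb2, and MOC cell 2 had reads of all 8 genes. MOC cell 13 was the opposite case, with 192 reads of Chrna4, 40 of Ly6h and 0 of the rest.

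**Figure D3:**
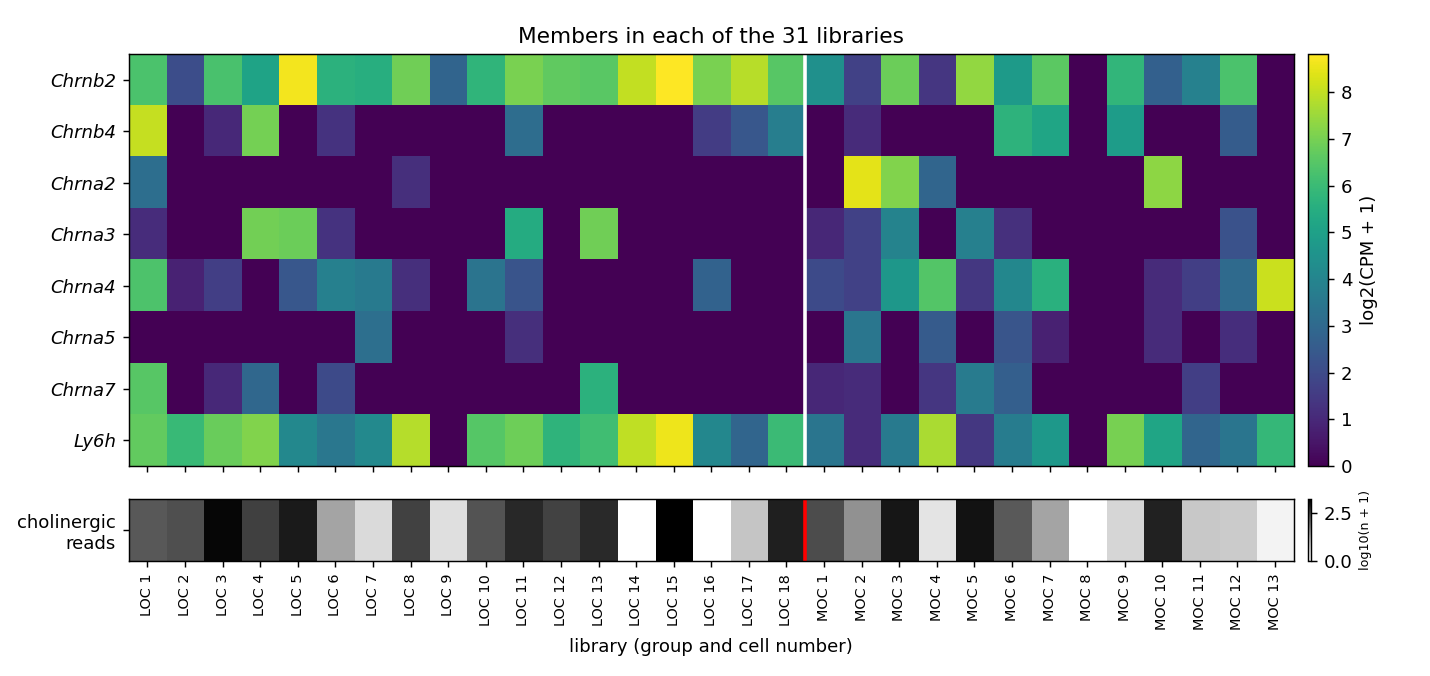
Rows are the 8 genes and columns the 31 libraries, coloured by log2(CPM + 1), with the LOC cells left of the line; the lower strip shows log10 of the reads over Chat, Slc18a3 and Slc5a7 plus 1. The Chrnb2 and Ly6h rows are bright in most LOC cells, with their lowest LOC values in cell 2 (Chrnb2) and cell 9 (Ly6h). Chrna3 is bright in LOC cells 4, 5, 11 and 13, Chrna2 in MOC cells 2, 3 and 10, and MOC cell 8 is at 0 throughout.

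The alpha gene with the most reads in a cell, not divided by exon length, followed the groups in part. Per length the leading gene can differ where reads were nearly equal. LOC cell 7 had 4 reads of Chrna4 and 3 of Chrna5, and MOC cell 5 had 8 of Chrna3 and 7 of Chrna7. In LOC the gene with the most reads was Chrna3 in 4 cells, Chrna7 in 1, Chrna2 in 1 (a tie at 1 read with Chrna4) and Chrna4 in 6. Chrna4 had at least 5 reads in just 2 of those 6, and 6 LOC cells had no read of any of the 5 alpha genes. These 6 (cells 9, 12, 14, 15, 17 and 18) nevertheless held 3 to 417 reads of Chrnb2. In MOC it was Chrna4 in 7 cells (tied with Chrna7 at 2 reads in cell 11, and with at least 5 reads in 5 of the 7), Chrna2 in 3 and Chrna3 in 1, and 2 cells (8 and 9) had no alpha read. A cell with no alpha read among these genes may hold their RNA below the limit of 3 counts.

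The partners alpha 4 and beta 2 were read together in 10 of 18 LOC cells and 10 of 13 MOC cells, and both had at least 5 reads in 4 cells of each group. In MOC high levels of both genes met in some cells and not in others. MOC cell 7 held 48.0 CPM of Chrna4 and 95.2 CPM of Chrnb2, the third highest value of each, and MOC cell 3 held 24.1 and 112 CPM. MOC cells 13 and 4, the highest in Chrna4, had 0 and 1 reads of Chrnb2, while MOC cell 5, the highest in Chrnb2, had 1 read of Chrna4. Chrna2 and Chrnb2 both reached 5 reads in MOC cells 3 and 10, and MOC cell 2, with 312 reads of Chrna2, had 2 of Chrnb2 and 1 of Chrnb4. Over all 31 cells the log2 values of Chrna4 and Chrnb2 had a Pearson correlation of -0.23, but within the groups it was -0.01 (LOC) and -0.13 (MOC). For Chrnb2 and Ly6h it was 0.32 over all cells, 0.37 within LOC and -0.004 within MOC. These are descriptions across cells that share library preparation and differ in cell content and depth.

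The neighbours on chromosome 9 were not read in the same cells throughout. Chrna3 had at least 5 reads in LOC cells 4, 5, 11 and 13, Chrnb4 in LOC cells 1, 4, 11 and 18, and both in cells 4 and 11. In MOC both were never at 5 reads in 1 cell: Chrna3 was in cells 3 and 5, Chrnb4 in cells 6, 7 and 9. Chrna5, between 0 and 9 reads per cell, reached 5 reads in MOC cell 2 alone, where Chrna3 had 2 reads and Chrnb4 had 1. Chrna3 and Chrna7 shared LOC cells 4 and 13 at 5 reads or more.

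Levels of different genes are comparable only per length, here as CPM per 1000 bases of all annotated exons of a gene. In LOC the order of summed levels was Ly6h (23.4), Chrnb2 (17.7), Chrnb4 (6.41), Chrna3 (5.0), Chrna7 (1.95), Chrna4 (1.47), Chrna2 (0.15) and Chrna5 (0.09). On the log2(CPM per kb + 1) scale the LOC means of Ly6h (3.76 ± 1.75) and Chrnb2 (3.49 ± 1.42) did not differ beyond their spread, and the step from Chrnb2 down to Chrnb4 (0.98 ± 1.81) was wider than either SD. No further neighbours in the LOC order were separated beyond their spread. In MOC the order was Chrna2 (12.5), Ly6h (7.67), Chrna4 (6.29), Chrnb2 (5.95), Chrnb4 (3.21), Chrna3 (0.47), Chrna5 (0.45) and Chrna7 (0.26), and no neighbours there differed beyond their spread. The place of Chrna2 rests on a few cells: by mean log2(CPM per kb + 1) it came after Ly6h, Chrnb2 and Chrna4, at 1.43 ± 2.5 against 2.30 ± 1.74, 1.90 ± 1.59 and 1.67 ± 1.83.

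Beta genes made up more of the subunit RNA in LOC than in MOC. Chrnb2 and Chrnb4 together held 73.6% of the summed level per length of the 7 subunit genes in LOC and 31.4% in MOC, or 40.0% without MOC cell 2. In libraries with at least 10 cholinergic reads the shares were 72.0% and 31.7%. Chrnb2 alone held 54.0% in LOC and 20.4% in MOC, while Chrna2 held 0.45% and 43.0%. Cell by cell, among cells with at least 10 subunit reads, the beta share ran from 25% over a median of 85.3% to 100% in 16 LOC cells and from 0% over a median of 66.4% to 100% in 12 MOC cells. It was above 50% in 15 of the 16 LOC cells and 7 of the 12 MOC cells, and the groups overlapped. The MOC cells at or below 50% were cells 2, 3 and 10, rich in Chrna2, and cells 4 and 13, rich in Chrna4. This share was computed after the values of the genes were seen and is a description.

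**Figure D4:**
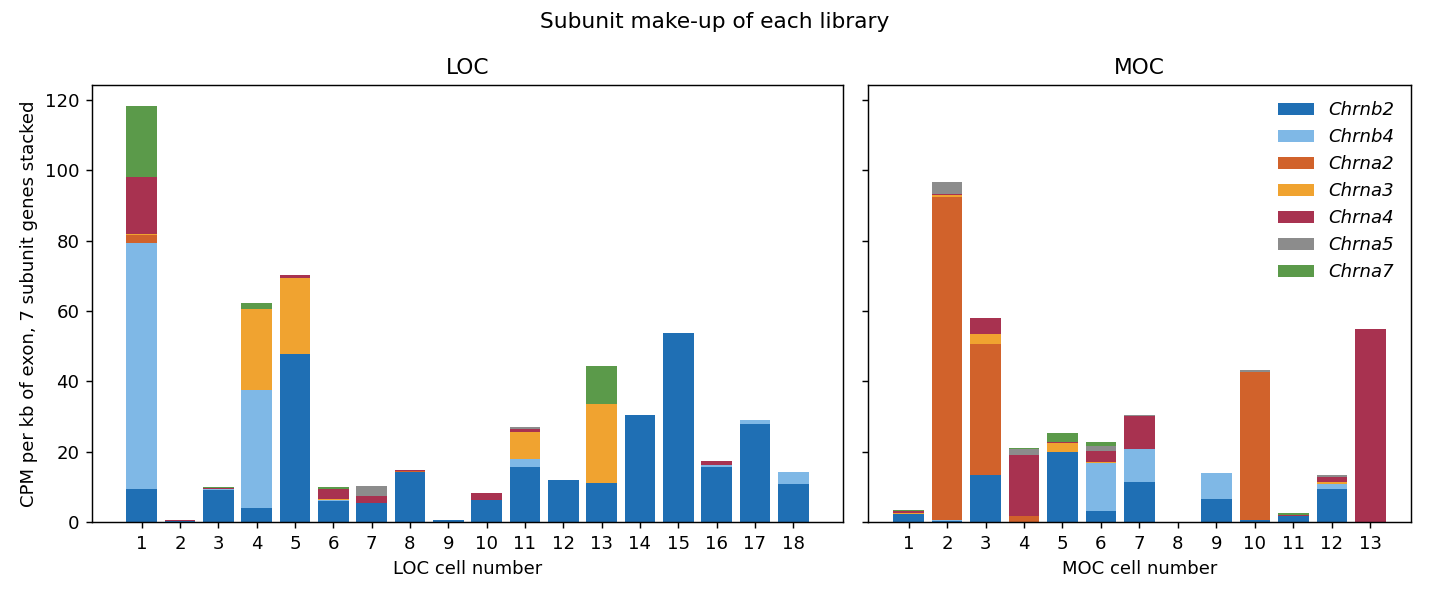
Each bar is 1 library, LOC cells on the left and MOC cells on the right, with the y axis giving CPM per kb of exon for the 7 subunit genes stacked by colour. Chrnb2 (dark blue) is present in all LOC bars, while tall MOC bars are made mostly of Chrna2 (cells 2, 3 and 10) or Chrna4 (cell 13).

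Among 3 lists of 9 other genes of nicotinic signalling each, Unc50 alone met the size rule. Of 9 further subunit genes, those of muscle receptors and of alpha 6, alpha 9, alpha 10 and beta 3, all had a read somewhere but 3 were measured, and 0 met the size rule in either group. Chrnb1, the beta subunit of muscle receptors, had the highest sum of these in LOC, 1.47 CPM against 0.88 CPM in MOC. For the hair cell receptor, Chrna9 had 4 reads over all LOC cells and 8 over all MOC cells, and Chrna10 had 1 and 2. Of 9 other Ly6 family genes 6 were measured and 0 met the rule (median difference -0.56). Ly6e, the highest, was summed to 142 CPM for LOC against 213 for MOC (difference -0.85), and Lynx1, a brake on nicotinic receptors in the brain, 71.3 and 93.3 CPM (-0.85). Both of these differences have the opposite sign to that of Ly6h, and neither met the rule. Lypd1 had the same sign as Ly6h, at 21.0 against 7.55 CPM (difference 0.61). Lypd6b rested on few cells, 3 in LOC and 6 in MOC (0.56 against 11.5 CPM, difference -0.82).

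All 9 genes for receptor assembly and anchoring were measured, with a median difference of 0.21, and 1 of them met the size rule, in the LOC direction. It was Unc50, which encodes a Golgi protein needed for nicotinic receptor delivery in worms, with sums of 57.8 and 16.2 CPM (LOC, then MOC; difference 2.46, reads in 17 of 18 and 9 of 13 cells). Ric3, the gene of a chaperone for alpha 7, had 56.8 and 62.8 CPM, and Tmem35a, which encodes the chaperone NACHO, 91.3 and 68.0 CPM (difference 0.90). Ywhah, a 14-3-3 protein that binds alpha 4, had the highest sum of the list at 385 and 480 CPM.

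For the 3 genes read in 50% or more of either group's cells, the genes most like them over the 31 cells were found by Pearson correlation of log2(CPM + 1) among 10972 genes with reads in at least 50% of all cells. Among the 3 genes nearest to Chrnb2 were Entrep3 (r = 0.71, 0.68 within LOC and 0.67 within MOC) and Lsamp, a neuronal adhesion protein (0.71, but 0.28 within LOC). Ly6h was nearest to Rasgrf1, a Ras activator of neurons (0.80, 0.79 within LOC and 0.75 within MOC), Tbc1d17 (0.74) and Sfi1 (0.70). Chrna4 was nearest to Adcy9, an adenylyl cyclase (0.70), Aven (0.67) and Trrap (0.67). In the same order its correlations were 0.52, 0.40 and 0.60 within LOC and 0.77, 0.76 and 0.75 within MOC. Rasgrf1 was summed to 680 CPM for LOC against 196 for MOC, and Adcy9 to 4.28 and 20.5 CPM. The correlations with log2 of the total counts were 0.01 for Chrnb2, -0.04 for Ly6h and 0.02 for Chrna4 over all 31 cells. Within LOC and within MOC they were 0.21 and 0.20 for Chrnb2, 0.32 and -0.15 for Ly6h, and -0.16 and -0.06 for Chrna4. The highest of 10972 correlations is high in part by choice, and the cells share their library preparation and differ in depth.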

How the data were processed

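RNA of 31 single neurons was sequenced as paired 75 bp reads (MiSeq), per the series description. The authors deposited a table of raw counts, with genes in rows and a column for each neuron, and a table of normalized signal values that, per the file's own name, are CPM on TMM-adjusted sizes. In it each column was the raw count times 1 constant, and it served as an alternative. STAR 2.5.2, bcl2fastq, limma, edgeR and DESeq2 stand in the submitters' processing notes without roles, next to mm10 and GRCm38 as builds. Which tool counted the reads, on which annotation, and how reads that match several genes were treated is not stated in the sources used here.

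Columns were matched to cells by the library name in the labels. CPM used the total over the 55421 mouse genes, leaving out 19 added sequences. Group sums carry exact 95% Poisson intervals and shares of cells exact 95% Clopper-Pearson intervals. The reads have no molecular identifiers: intervals and the limit of 3 counts cover counting error only. Differences are LOC minus MOC of mean log2(CPM + 1), a scale that understates the change of low genes. The labels name no animal, so no test was run. edgeR 4.0.16 (R 4.3.3) gave TMM sizes as an alternative, and scripts ran in Python 3.11.15. Symbols outside the authors' table, positions and exon lengths came from GENCODE M21 (55154 identifiers matched), and a length counts all annotated exons.

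The members, gene lists and alternatives were chosen with earlier results of these data known. Besides the members, the rule for named genes took, from the 3 lists of nicotinic genes, those that met the size rule and the highest of each list, and the 3 most correlated genes of each widely read member, of which 1 is not reported here. Tmem35a, Ric3, Lynx1, Lypd1, Lypd6b, Chrna9, Chrna10 and Adar were named outside the rule, after their values were seen. The size rule was checked on simulated counts with planted log2 changes of 3, well above the 2-fold that the rule asks for. That check does not cover smaller changes.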

Additional observations from a re-analysis of the deposited data

How the results depend on the processing

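No paired analysis was possible because no result comes from a test, and the cell numbers in the labels only name cells. Chrnb2 kept its call in LOC under all alternatives that apply the rule, and Ly6h, Chrna4 and Chrna2 kept theirs under all but those named here. Measured by the log2 ratio of summed CPM, the difference was -6.40 for Chrna2, 3.40 for Chrna3, -2.31 for Chrna5 and 2.90 for Chrna7, since that measure weights a cell by its reads. The authors' normalized values left 1 member meeting the rule in LOC (Ly6h was lost). A pseudocount of 10 and thinning to 300000 counts each left 1 in MOC (Chrna4 was lost), as did asking for reads in at least 50% of the cells (Chrna2 was lost). Over all genes a pseudocount of 10 gave 370 calls in LOC and 209 in MOC in place of 1078 and 1007. Libraries with at least 10 cholinergic reads (14 LOC and 8 MOC) gave 1730 in LOC and 1410 in MOC, and the cause was not tested. Leaving out each cell in turn moved the difference of Chrnb2 between 2.0 and 2.61, of Ly6h between 1.44 and 2.09, of Chrna4 between -1.77 and -1.07 and of Chrna2 between -1.92 and -1.2, and that of Chrna3 between 0.20 and 0.75. That of Chrnb4 changed sign, between -0.30 and 0.43, and so did that of Chrna7, between -0.20 and 0.36. TMM sizes moved the median of all genes by -0.06 and gave 905 calls in LOC and 1232 in MOC. The authors' values, averaged over cells, gave 875 and 1172 among 16026 genes in place of 17754. Under both settings MOC had more calls than LOC. A library size without glial and vessel markers, chosen after seeing the data, changed no call of a member. Depth limits Chrna5 and single reads of the other alpha genes.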
